A study of Mus musculus with 216 samples.

Results

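The adrenal gland was compared between mice of 27 months and mice of 6 months. The comparison used 24 of the 36 adrenal libraries of a study of male mice of the strain C57B6/J-NIA, in which 6 tissues gave 36 libraries each and were taken every 4 h. The labels name no treatment, allele or transgene for any group. The young group (6 months) and the old group (27 months) each held 12 adrenal libraries, 1 per circadian time from 18 to 62. Each library pooled RNA of 2 samples, and each gene was tested with circadian time as a block, so that old and young were compared within a time. The 12 adrenal libraries labelled aged (18 months) serve here only to give levels. Nothing in the labels says whether the glands of a pool came from 1 mouse or from several, so p-values measure the spread between these pools. Levels are in CPM, a gene's count per 1000000 counts of its library. Changes are log2 of old over young with their standard error (SE).

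The adrenal gland joins 2 endocrine tissues. Its cortex makes steroids from cholesterol in layers: the outer zona glomerulosa makes aldosterone under angiotensin II and potassium, and the inner zona fasciculata makes corticosterone under ACTH. The medulla at its core holds chromaffin cells, which make adrenaline and noradrenaline. The gland sits in fat above the kidney, close to liver, pancreas and the muscle of the body wall.

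The 12 young libraries held 14771602 to 20091025 counts, the 12 old libraries 15000993 to 20801317 and the 12 aged libraries 15593463 to 19755533. Defining genes of cortex and medulla were present at every age, with 1 exception that stands apart from the rest. In the young library at circadian time 54, 6 cortex genes summed to 688 CPM, against 11219 to 17312 in the other 11 young libraries and 6657 to 15512 in the old ones. Its 5 medulla genes summed to 61.7 CPM, against at least 1490 in each other young library, and its 10 white fat genes to 22450 CPM. Results are therefore given with and without circadian time 54. The young library at 30 also stood apart: 15 genes of B and plasma cells summed to 10919 CPM there and to at most 999 in the other young libraries, and 14 genes of T and NK cells to 639 against at most 56.7.

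Genes of neighbouring tissues varied from library to library. The sum of 13 fast skeletal muscle genes ran from 15.8 to 3403 CPM in young libraries (median 128) and from 26.1 to 24558 in old ones (median 7120). For 7 liver genes the sum ran from 29.0 to 10007 CPM in young (median 182) and from 181 to 23091 in old (median 6624). The 6 pancreas genes summed to 25286 CPM in the old library at 18 and to 9853 at 46, against a median of 0.717 in old and 0.916 in young. White fat genes had like medians of 9746 CPM in young and 9534 in old. Kidney tubule genes stayed at or below 38.5 CPM at both ages. By their medians, muscle and liver genes were higher in old libraries.

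**Figure D1:**
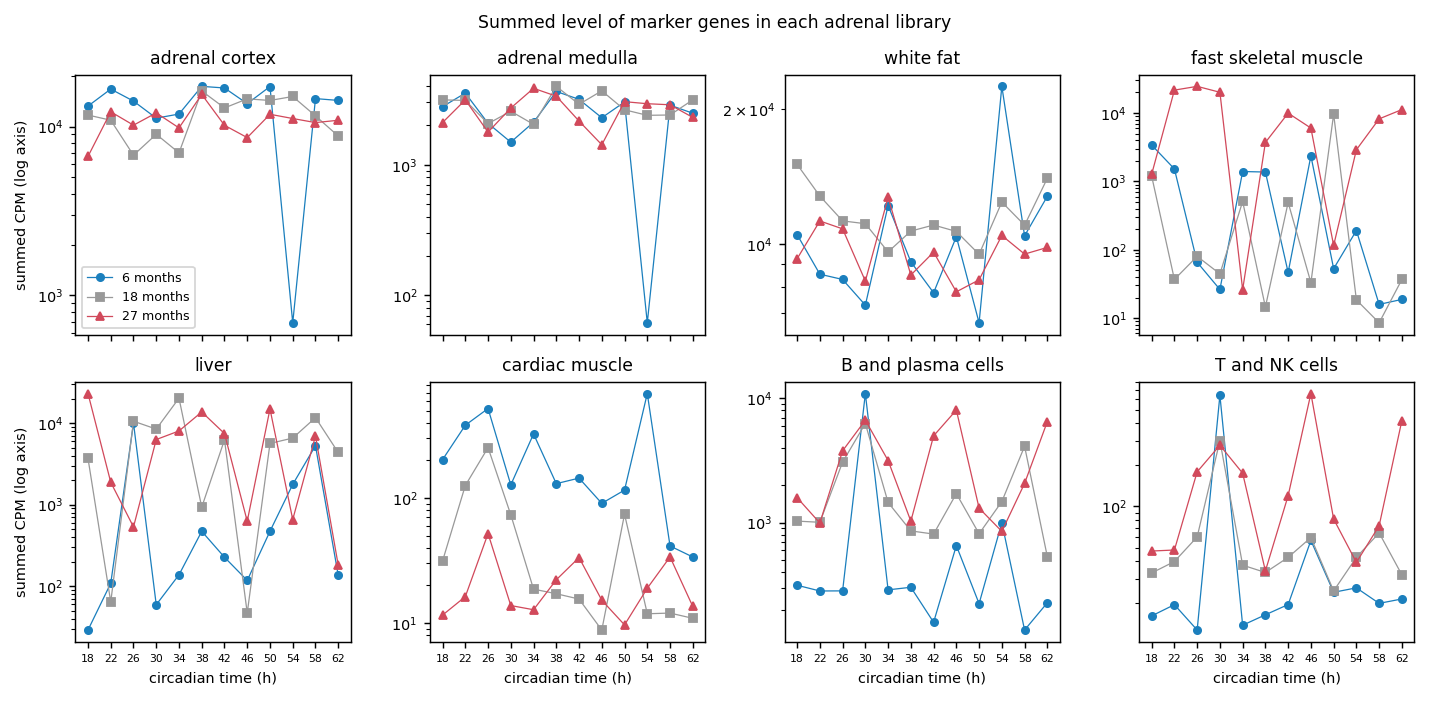
Summed CPM of marker genes (log axis) in each adrenal library against circadian time in hours, at 6, 18 and 27 months, with 1 point per library. The young library at 54 lies at 688 CPM for cortex genes and 61.7 for medulla genes, and the young library at 30 at 10919 CPM for B and plasma cell genes.

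In edgeR's quasi-likelihood fit, with p-values adjusted by Benjamini and Hochberg's method and a threshold of 0.05, 1384 of 17355 genes were higher in old adrenal (7.97%) and 1179 were lower (6.79%), and 5854 had an unadjusted p under 0.05. Among the called genes the median size of the change was 0.58 on the log2 scale. Large changes were mostly rises: 678 genes rose by more than 1 log2 unit and 92 fell by more than 1. Of the called genes, 199 were higher and 221 lower in old at all 12 times. In 18 genes each old library lay above each young one, and in 18 below. Without circadian time 54 the test called 4540 genes, 13.3% higher and 12.8% lower, which included 2519 of the 2563 genes called with it, all in the same direction. Leaving out circadian times 30 and 54 gave 17.3% higher and 15.5% lower. That setting was chosen after the data were seen, from the high lymphocyte sums of the young library at 30. What it gives for lymphocyte, MHC and cell division genes below is therefore a description and no separate support.

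The calls depended on terms for the makeup of the libraries. With the summed liver genes as a covariate 3.98% of genes were called higher and 2.83% lower. Leaving out circadian time 54 as well gave 1624 higher and 1505 lower of 17376 genes. With covariates for fast muscle, white fat and brown fat genes, 0.127% and 0.242% were called. Without the block for circadian time 8.19% were higher and 8.50% lower. These shares are the background for the counts of members called in each gene list. A call lost with covariates need not be a smaller change. The main fit left 11 residual degrees of freedom, and covariates take up some of them. With those for muscle and fat, list medians moved both ways: B and plasma cells from 2.77 to 3.59, zona glomerulosa from -0.88 to -0.52.

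The zona glomerulosa list held falls and no rises. Of 11 genes tested, 5 were lower in old and 0 higher (median change -0.88, against 0.01 over all genes tested). Without circadian time 54, 10 of 11 were lower (median -1.13). The exception was Lef1, a transcription factor of Wnt signalling, at -0.51 (adjusted p 0.132). With circadian times 30 and 54 left out, 10 were lower. The counts were 0 of 11 lower with the liver covariate (median -0.67) and 0 with those for muscle and fat (median -0.52). With 54 left out as well, the liver covariate gave 10 of 11 lower and 0 higher (median -1.24). In these bulk libraries, fewer cells of a type and less RNA per cell cannot be told apart.

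Cyp11b2 (chr15:74851010-74856318 on GRCm38) encodes aldosterone synthase, which carries out the last steps of aldosterone synthesis. It ran from 146 to 358 CPM in the 11 young libraries other than 54 and had 2.42 CPM in that one, while old libraries ran from 18.8 to 129 CPM (median 41.2). The groups overlapped only through the young library at 54, since the highest old value lay under the lowest of the other young ones. The change was -1.91 ± 0.52 (adjusted p 0.0288), and -2.19 ± 0.30 (adjusted p 7.13e-04) without circadian time 54. Cyp11b2 was lower in old at 11 of 12 times, and its median at 18 months was 74.3 CPM.

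Hsd3b6 (chr3:98805504-98814443) encodes the 3-beta-hydroxysteroid dehydrogenase isoform of the mouse zona glomerulosa. Young libraries other than 54 ran from 30.6 to 133 CPM, and old ones from 3.47 to 24.6 CPM (median 10.9). It changed by -2.63 ± 0.63 (adjusted p 0.0179), and by -2.92 ± 0.35 (adjusted p 3.61e-04) without circadian time 54. At 18 months the median was 23.2 CPM, between those of the other ages. Agtr1b, an angiotensin II receptor, had 9.82 to 21.9 CPM in the 11 young libraries and 1.42 to 4.06 CPM (median 2.54) in old. Its change was -2.10 ± 0.48 (adjusted p 0.0152), or -2.37 ± 0.17 (adjusted p 1.04e-05) without circadian time 54. In both genes every old library lay below every young one once the young library at 54 was set aside.

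Vsnl1, which encodes the calcium sensor visinin-like 1, ran from 25.7 to 51.9 CPM in young without 54 and from 4.49 to 16.8 CPM (median 7.12) in old, a change of -1.86 ± 0.40 (adjusted p 0.0117). Dab2, an endocytic adaptor used as a marker of the layer, changed by -0.54 ± 0.12 (adjusted p 0.0155). The potassium channels that set the resting potential of these cells did not pass over all 12 times: Kcnk9 was at -1.28 (adjusted p 0.0787) and Kcnk3 at -0.59 (adjusted p 0.0948). Both passed without circadian time 54, with -1.55 (adjusted p 1.32e-04) and -0.78 (adjusted p 2.97e-04). The same held for the calcium channel gene Cacna1h, at -0.83 (adjusted p 0.198) and then -1.10 (adjusted p 0.00391). It held too for the main angiotensin II receptor Agtr1a, at -0.77 (adjusted p 0.0572) and -0.95 (adjusted p 0.00258), and for the ligand Wnt4, at -0.88 (adjusted p 0.133) and -1.13 (adjusted p 8.23e-04).

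**Figure D2:**
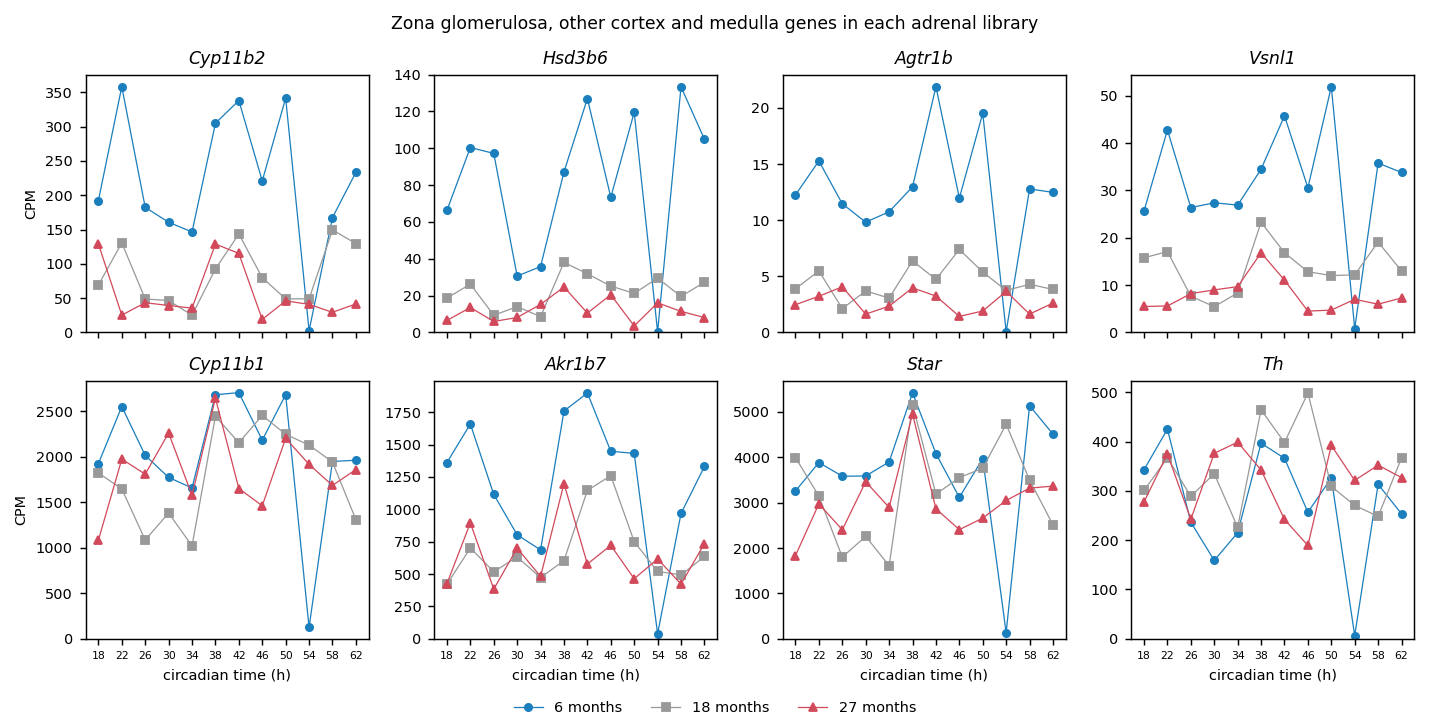
CPM of 4 zona glomerulosa genes, 3 other cortex genes and the medulla gene Th in each adrenal library against circadian time in hours, at 6, 18 and 27 months, with 1 point per library. Old values of Cyp11b2 reach 129 CPM and young values, other than the library at 54, start at 146.

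The wider steroid pathway gave few calls unless circadian time 54 was left out. Of 16 steroidogenesis genes 1 was lower over all 12 times, Tspo, which encodes a protein of the outer mitochondrial membrane, at -0.22 ± 0.06 (adjusted p 0.0301), and the list median was -0.16. Without circadian time 54, 11 of 16 were lower and 0 higher (median -0.37). The other 5, all with values below 0, were Cyp11b1, Mc2r, Mrap, Por and Pde8b. Without 30 and 54, 12 were lower, with Cyp11b1 among them. The counts were 0 of 16 lower with the liver covariate (median -0.12) and 0 with those for muscle and fat (median 0.01). With 54 left out as well, the liver covariate gave 9 of 16 lower and 0 higher (median -0.39).

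Star moves cholesterol into the mitochondrion, the step that limits steroid synthesis. It ran from 3115 to 5420 CPM in the 11 young libraries and from 1834 to 4954 CPM (median 2934) in old, a change of -0.38 ± 0.06 (adjusted p 0.00156) without circadian time 54 and -0.14 ± 0.33 (adjusted p 0.806) with it. Cyp11a1, which cleaves the cholesterol side chain, changed by -0.65 (adjusted p 6.80e-04) without that time, and Fdxr, which feeds it electrons, by -0.83 (adjusted p 2.97e-04). The largest of these falls was that of Akr1b7, an aldo-keto reductase of the fasciculata under ACTH control. It had 686 to 1899 CPM in young without 54 and 383 to 1199 CPM (median 597) in old. Its change was -1.0 (adjusted p 5.16e-04), or -0.76 (adjusted p 0.163) over all 12 times. Cyp11b1, which makes corticosterone, had overlapping groups and did not pass, at -0.20 (adjusted p 0.0941) without 54, nor did the ACTH receptor gene Mc2r, at -0.14 (adjusted p 0.297).

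Cyp11b2 was also set against Cyp11b1, and Hsd3b6 against Hsd3b1, in each library. These ratios were chosen after the falls above were seen, so they are a description with no test. Cyp11b2 stood at 8.61 to 14.1 per 100 Cyp11b1 in the 11 young libraries other than 54 (median 10.1) and at 1.27 to 11.9 in the old libraries of those times (median 2.24), with overlap. Hsd3b6 per 100 Hsd3b1 stood at 1.53 to 5.37 in young (median 2.97) and at 0.136 to 1.21 in old (median 0.487), without overlap. Hsd3b1 and Hsd3b6 are close copies of 1 gene family and Cyp11b1 and Cyp11b2 neighbour each other, so reads shared between them could move counts from one to the other.

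Medulla genes did not pass the test. Of 16 tested, 0 were higher and 0 lower over all 12 times (median 0.27), and the same counts were found without 54 (median 0.02). Th, the rate-limiting enzyme of catecholamine synthesis, ran from 159 to 425 CPM in young without 54 and from 189 to 399 CPM (median 335) in old, at 0.18 ± 0.15 (adjusted p 0.389). Pnmt, which turns noradrenaline into adrenaline, was at 0.05 (adjusted p 0.874). Without 30 and 54, 2 of 16 genes passed: Ddc, the decarboxylase after Th, at 0.33 (adjusted p 0.0352), and the vesicular transporter gene Slc18a2 at 0.42 (adjusted p 0.037). The difference between the cortex and medulla lists was not tested.

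Genes of the capsule and of cortical progenitors, which renew the cortex from its rim, gave 1 higher and 0 lower of 7 (median 0.02). Wt1, a transcription factor of capsular cells, had 4.51 to 18.3 CPM (median 6.25) in young and 5.91 to 19.3 CPM (median 10.3) in old, with overlap, at 0.80 ± 0.20 (adjusted p 0.0204). Shh, the signal that glomerulosa cells send to the capsule, was at -0.83 (adjusted p 0.248) over all times and at -1.10 (adjusted p 0.00114) without 54. Its response genes Gli1 and Ptch1 did not pass, at -0.07 (adjusted p 0.78) and 0.00 (adjusted p 0.99) without 54.

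Cortical cells take cholesterol from lipoproteins and also make it. Of 20 genes of cholesterol supply, 5 were higher and 0 lower (median 0.20), and without 54 5 were higher and 3 lower. The risers included enzymes of synthesis and Npc1, which exports cholesterol from lysosomes (change 0.22, adjusted p 0.0431). Among the enzymes, Fdps ran from 0.908 to 4.75 CPM (median 2.69) in young and from 2.13 to 10.3 CPM (median 4.29) in old, with overlap, at 0.85 ± 0.23 (adjusted p 0.03). Sqle was at 0.64 (adjusted p 0.0373). Genes lower without 54 were Scarb1, the receptor that takes cholesterol ester from HDL, at -0.73 (adjusted p 3.01e-04), Soat1, which esterifies cholesterol, at -0.58 (adjusted p 0.00436), and Dhcr7 at -0.34 (adjusted p 0.0239). The counts were 0 of 20 higher with the liver covariate (median 0.10) and 0 with those for muscle and fat (median 0.06). With 54 left out as well, the liver covariate gave 0 higher and 3 lower (median 0.06). Liver makes cholesterol, and 7 of 7 liver genes had values above 0 (median 3.64), but 0 passed in the main fit. Without 54, 5 of the 7 liver genes were higher, and without 30 and 54, 1 was. The part of liver genes in the rises above was not tested.

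Lymphocyte genes rose in old adrenal. All 14 genes of B and plasma cells that were tested were higher (median 2.77), as they were without 54 (median 2.92) and without 30 and 54 (median 3.27). Mzb1 fell under the filter on low counts. Without the block, 1 of 14 passed (median 1.10), and the counts were 8 of 14 higher with the liver covariate (median 3.25) and 0 with those for muscle and fat (median 3.59). With 54 left out as well, the liver covariate gave 13 of 14 higher (median 3.72). The summed level of the list ran from 137 to 999 CPM in young apart from 30, and from 850 to 8045 in old. Ighm (chr12:113418558-113422730), the constant region of IgM, ran from 98.9 to 2997 CPM (median 193) in young and from 477 to 3534 CPM (median 1473) in old. Apart from the young library at 30, which had 2997 CPM, young values reached 776, below the old median. Its change was 2.45 ± 0.47 (adjusted p 0.00739), and 2.94 ± 0.31 (adjusted p 1.35e-04) without 30 and 54, with old higher at 10 of 12 times. The median of Ighm at 18 months was 754 CPM. Since time 30 was set aside for its lymphocyte genes, values without it are no separate support for these rises.

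Class-switched antibody genes rose too. Ighg2b, an IgG constant region, had a young median of 1.31 CPM and an old median of 178, at 5.90 ± 1.03 (adjusted p 0.00446). Ighg1 was at 5.91 ± 0.94 (adjusted p 0.00286) and the kappa light chain Igkc at 3.76 ± 0.62 (adjusted p 0.0032), and Jchain, which joins IgM and IgA into polymers, at 3.41 (adjusted p 0.00563). The B-cell surface gene Ms4a1 changed by 2.20 (adjusted p 0.0369). In each of these genes the young library at 30 lay above every old library, so the groups overlapped. Ighg2b had 1452 CPM there and at most 955 in old, and Igkc 1342 and at most 1233. Of 65 immunoglobulin variable genes tested, 59 were higher and 0 lower (median 4.05), and 7 of them are among the 10 largest rises named by rule. The filter on low counts keeps a gene with hardly any counts in young only where old libraries hold counts. These counts of variable genes are therefore a description and no separate support for the rise, and the same limit holds for Ighg1. Among the variable genes, Igkv3-2 had a young median of 0.26 and an old median of 47.4 CPM, at 6.01 ± 1.07 (adjusted p 0.00485). Such genes are near-identical copies, so their counts are uncertain gene by gene. The others were Igkv17-121 (5.17), Igkv4-55 (5.12), Igkv6-20 (5.08), Igkv4-53 (4.18), Ighv12-3 (3.76) and Igkv6-17 (3.70), with adjusted p from 4.66e-04 to 0.00731.

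Of 13 genes of T and NK cells tested, 12 were higher and 0 lower (median 1.99), with 12 of 13 higher without 30 and 54. Without the block 3 passed, and the counts were 8 of 13 higher with the liver covariate (median 2.47) and 1 with those for muscle and fat (median 2.90). With 54 left out as well, the liver covariate gave 13 of 14 higher (median 3.04). The summed level of the list ran from 12.7 to 56.7 CPM in young apart from 30, and from 34.1 to 658 in old. Cd8a, a chain of the co-receptor of cytotoxic T cells, ran from 0.318 to 71.0 CPM (median 0.835) in young and from 3.49 to 52.2 CPM (median 9.58) in old, at 3.41 ± 0.58 (adjusted p 0.0037). The highest young value was that of the library at 30, and the other young libraries reached 6.25 CPM, below the old median, so that the groups overlapped. Gzmb, which encodes granzyme B of killer cells, was low but higher in old at all 12 times, with 0.424 to 1.48 CPM (median 0.955) in young and 1.3 to 8.87 CPM (median 3.05) in old, at 1.82 ± 0.23 (adjusted p 7.44e-04). The chemokine Ccl5 was also higher at each time, at 2.52 ± 0.43 (adjusted p 0.00393), while the granzyme gene Gzma was at -0.08 (adjusted p 0.825). Cd8b1, low in most young libraries, passed the filter on low counts through the old ones. Its call is no separate support for the rise.

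Part of the macrophage list rose. Over all times 6 of 16 were higher and 0 lower (median 0.50), and without 54 11 were higher. The list gave 1 of 16 higher with the liver covariate (median 0.45) and 0 with those for muscle and fat (median 0.62). With 54 left out as well, the liver covariate gave 10 of 16 higher and 0 lower (median 0.66). Cd5l, a secreted protein of resident macrophages, led with 7.69 to 121 CPM (median 59.0) in old against 4.54 to 21.0 CPM (median 11.3) in young, at 2.04 ± 0.35 (adjusted p 0.00399). The scavenger receptor gene Msr1 was at 1.0 (adjusted p 0.00575), the pore protein gene Mpeg1 at 0.75 (adjusted p 0.00965) and Adgre1, which encodes F4/80, at 0.67 (adjusted p 0.0178). Gpnmb, Lgals3 and Trem2, which mark lipid-laden macrophages, were at -0.29 (adjusted p 0.589), -0.39 (adjusted p 0.112) and 0.43 (adjusted p 0.064).

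Complement genes gave 5 higher and 0 lower of 12 (median 0.65), and 10 higher without 54. C4b (chr17:34728380-34743882), a component of the classical and lectin pathways, ran from 227 to 873 CPM (median 338) in young and from 474 to 2492 CPM (median 738) in old, at 1.16 ± 0.32 (adjusted p 0.0321), with old higher at 10 of 12 times. Without 54 it was at 1.33 ± 0.29 (adjusted p 0.00695), and its median at 18 months was 530.1 CPM. C3, the component on which the pathways converge, was at 1.55 ± 0.37 (adjusted p 0.019), from a young median of 926 to an old one of 2652 CPM. Liver makes most circulating complement, and the list gave 0 of 12 higher with the liver covariate (median 0.24) and 0 with those for muscle and fat (median 0.55). In the liver covariate fit C4b was at 0.64 (adjusted p 0.292) and C3 at 0.93 (adjusted p 0.16). Without 54 that fit gave 2 of 12 complement genes higher and 0 lower (median 0.36). C4a is a near copy of C4b and their reads may be shared.

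MHC class I genes, which present peptides to cytotoxic T cells, gave 9 of 14 higher and 0 lower (median 0.73), and 14 of 14 without 30 and 54. The list gave 2 of 14 higher with the liver covariate (median 0.67) and 0 with those for muscle and fat (median 0.93), and 4 without the block. With 54 left out as well, the liver covariate gave 6 of 14 higher (median 0.80). H2-Q7 had a young median of 45.0 and an old median of 133 CPM, at 1.36 ± 0.28 (adjusted p 0.00957), and Nlrc5, the activator of the class, was at 0.90 (adjusted p 0.0225). H2-Q7 and H2-Q6 are near-identical, so the split between them is uncertain. Of 7 class II genes 0 passed over all times, 6 without 54 and 7 without 30 and 54 (median 0.87). Ciita, their activator, was at 1.03 (adjusted p 0.0902) and at 1.45 (adjusted p 0.00378). In the young library at 30 Ciita had 234 CPM against a young median of 13.6.

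**Figure D3:**
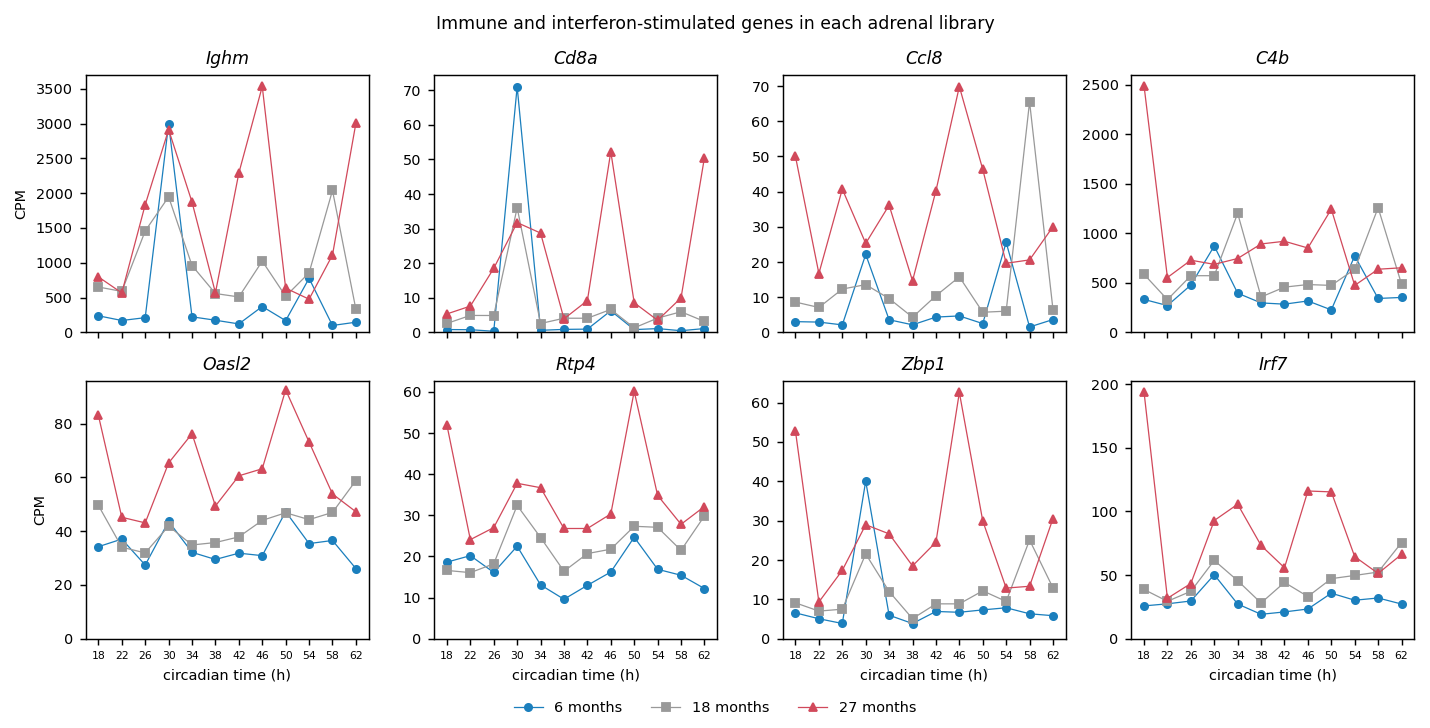
CPM of Ighm, Cd8a, Ccl8 and C4b (top) and of 4 interferon-stimulated genes (bottom) in each adrenal library against circadian time in hours, at 6, 18 and 27 months. Among young libraries Ighm and Cd8a peak at 30, at 2997 and 71.0 CPM, where Oasl2 had 43.7 CPM, within its young range. The highest Ighm value of all, 3534 CPM, is in the old library at 46.

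Interferon-stimulated genes are switched on through factors that bind interferon-stimulated response elements in their promoters. Of 16 on the list, 14 were higher and 0 lower in old (median 0.90), and without 54 15 were higher. Ifi27l2a and Ifi44 did not pass, at 0.29 (adjusted p 0.163) and 0.54 (adjusted p 0.0712). The list gave 9 of 16 higher with the liver covariate (median 0.71) and 1 with those for muscle and fat (median 0.99). With 54 left out as well, the liver covariate gave 8 of 16 higher (median 0.63). RefSeq promoters of GRCm38.p6 (250 bases before to 50 after the start) were at hand for 10 of the 16 genes. The core GAAANNGAA of that element, searched on both strands, occurred in 6 of them and in 9.76% of all 27025 genes with a promoter. Of single promoters, 8.56% of all 32851 held it. It also occurred in 2 of 6 zona glomerulosa and 1 of 9 steroidogenesis genes with a promoter. Stretches are shown for the 5 interferon-stimulated genes called higher that have a match before the start. Matches are in capitals (overlapping matches run together), each 5′ to 3′ along the gene.
Isg15 (chr4:156200866-156200906, minus strand): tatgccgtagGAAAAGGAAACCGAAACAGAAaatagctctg
Ifit1 (chr19:34640770-34640823, plus strand): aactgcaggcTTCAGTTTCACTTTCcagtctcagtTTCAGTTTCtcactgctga
Ifit3 (chr19:34583364-34583445, plus strand): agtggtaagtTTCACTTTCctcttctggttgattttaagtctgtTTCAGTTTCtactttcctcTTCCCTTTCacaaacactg
Oas1a (chr5:120907526-120907555, minus strand): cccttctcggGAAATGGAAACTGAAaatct
Bst2 (chr8:71537578-71537612, minus strand): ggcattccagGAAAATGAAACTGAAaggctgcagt
A match describes these letters and is not evidence of binding.

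Isg15, a ubiquitin-like modifier, ran from 4.4 to 12.3 CPM (median 6.92) in young and 8.17 to 33 CPM (median 13.9) in old, at 1.09 ± 0.21 (adjusted p 0.00692). Ifit1, which binds foreign RNA, was at 0.91 ± 0.15 (adjusted p 0.00362), and Ifit3 at 0.89 ± 0.13 (adjusted p 0.00176). Oas1a, a sensor of double-stranded RNA, was at 1.08 ± 0.19 (adjusted p 0.00411), and Bst2, which tethers virions to the cell surface, at 0.60 ± 0.17 (adjusted p 0.0364). Among the list the smallest p was that of Oasl2, a relative of Oas1a, with 26.1 to 47.3 CPM (median 33.2) in young and 43.1 to 92.6 CPM (median 61.9) in old, at 0.89 ± 0.10 (adjusted p 4.13e-04). Rtp4, a chaperone of receptors, was at 1.10 ± 0.12 (adjusted p 4.66e-04), and its groups touched (24.7 CPM as the highest young value and 24.1 as the lowest old one). Both were higher in old at all 12 times. Irf7, the transcription factor that amplifies the response, was at 1.44 ± 0.24 (adjusted p 0.00354), and Zbp1, a sensor of left-handed nucleic acid, at 1.83 ± 0.32 (adjusted p 0.00438). At 18 months Oasl2 had a median of 43.0 CPM and Rtp4 of 21.6, between those at 6 and 27 months. Ifi208, an interferon-inducible gene of a family of close copies, had 0.159 to 10.5 CPM (median 0.303) in young and 4.42 to 23.1 CPM (median 7.17) in old, at 4.28 ± 0.47 (adjusted p 4.13e-04). Being low in most young libraries, it passed the filter on low counts through the old ones.

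Of 12 genes tied to senescence and inflammation, 4 were higher and 0 lower (median 0.64). The list gave 3 of 12 higher with the liver covariate (median 0.71) and 0 with those for muscle and fat (median 0.85). With 54 left out as well, the liver covariate gave 5 of 12 higher (median 1.05). Ccl8, a chemokine of tissue macrophages, ran from 1.53 to 25.6 CPM (median 3.31) in young and from 14.7 to 69.9 CPM (median 33.1) in old, at 3.05 ± 0.48 (adjusted p 0.00247). Cxcl13, which attracts B cells into follicles, had medians of 5.01 and 48.2 CPM, at 2.87 ± 0.66 (adjusted p 0.0153). Cdkn2a, the locus of the cell-cycle inhibitor p16, was higher at all 12 times though low, with 1.05 to 3.07 CPM (median 1.89) in young and 1.4 to 14.0 CPM (median 3.36) in old, at 1.11 ± 0.24 (adjusted p 0.0109). Mmp3, a matrix metalloproteinase, was at 2.09 ± 0.43 (adjusted p 0.01). Cdkn1a, the locus of p21, was at -0.16 (adjusted p 0.553), and Il6 fell under the filter.

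Among matrix genes falls outnumbered rises. Of 16 tested, 8 were lower and 1 higher in old (median -0.54), and without 54 10 were lower and 2 higher. The list gave 6 of 16 lower with the liver covariate (median -0.76) and 5 with those for muscle and fat (median -0.94). With 54 left out as well, the liver covariate gave 6 lower and 2 higher (median -0.50). Sparc, a collagen-binding glycoprotein, ran from 879.5 to 3215 CPM (median 1439) in young and from 664 to 1058 CPM (median 811) in old and was lower at all 12 times, at -0.77 ± 0.13 (adjusted p 0.00359). The basement membrane collagen Col4a1 was also lower at each time, with medians of 738 and 482 CPM, at -0.66 ± 0.15 (adjusted p 0.0132), and Col4a2 was at -0.64 (adjusted p 0.0148). Col6a1 was at -0.68 ± 0.12 (adjusted p 0.00561), Col5a1 at -0.55 (adjusted p 0.0313), Col15a1 at -0.76 (adjusted p 0.0284), the crosslinking enzyme gene Lox at -0.61 (adjusted p 0.0437) and the protease inhibitor gene Timp1 at -0.53 (adjusted p 0.00894). Dcn, a small proteoglycan, was higher, at 0.35 (adjusted p 0.0414). The highest young value of Sparc and Col4a1 lay in the fat-rich library at 54, and both passed without it, at -0.67 (adjusted p 4.22e-04) and -0.55 (adjusted p 0.00214). Of 8 endothelial genes 3 were lower: Tek, the angiopoietin receptor, at -0.42 (adjusted p 0.0127), Emcn at -0.43 (adjusted p 0.0361) and Esam at -0.28 (adjusted p 0.0379). The endothelial sum ran from 946 to 1362 CPM in young and from 723 to 1125 in old.

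**Figure D4:**
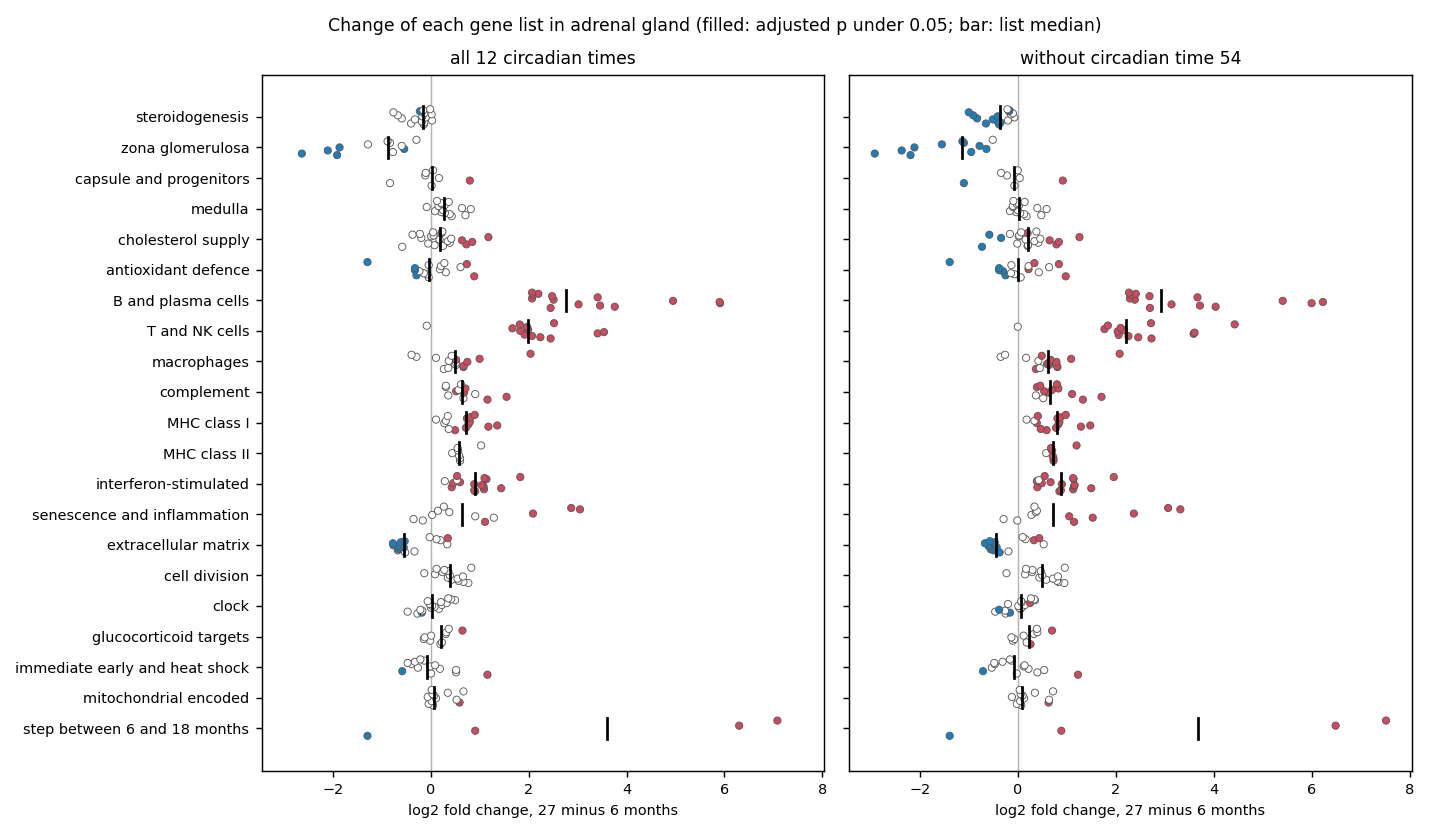
Log2 fold change, 27 minus 6 months, of each tested gene of 21 lists over all 12 circadian times (left) and without circadian time 54 (right). Filled points have an adjusted p under 0.05 (red higher, blue lower in old) and bars mark list medians, which for zona glomerulosa genes are -0.88 and -1.13 and for B and plasma cell genes 2.77 and 2.92.

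Steroid synthesis leaks electrons, and cortical cells hold much antioxidant enzyme. Of 16 antioxidant genes, 2 were higher and 4 lower (median -0.04). With the liver covariate 1 was higher and 2 lower, and with those for muscle and fat 0 and 0. With 54 left out as well, the liver covariate gave 1 higher and 3 lower. Gpx3, a secreted glutathione peroxidase, ran from 267 to 538 CPM (median 365) in young and from 449 to 869.5 CPM (median 678) in old, at 0.89 ± 0.14 (adjusted p 0.00297), and the quinone reductase gene Nqo1 was at 0.74 (adjusted p 0.0192). Lower were Gpx4, which reduces lipid peroxides, at -0.29 (adjusted p 0.0448), the mitochondrial thioredoxin gene Txn2 at -0.32 (adjusted p 0.0269), its reductase gene Txnrd2 at -0.32 (adjusted p 0.0457), and Nnt.

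Nnt encodes the transhydrogenase that makes NADPH in mitochondria. In the 11 young libraries other than 54 it ran from 138 to 247 CPM, with 62.6 at 54, and in old from 47.3 to 97.5 CPM (median 72.8). Setting 54 aside the groups did not overlap, at -1.39 ± 0.09 (adjusted p 6.76e-06). The 18-month median, 59.3 CPM, lay near the old one. The list of genes known to differ between C57BL/6 substrains or that step between 6 and 18 months drew on earlier results on these samples. It is not independent evidence, and its members other than Nnt rose. Whether the mice of 6 months differ in substrain from the older mice was not tested. Ide, the insulin-degrading enzyme gene (chr19:37268743-37337852), had 96.3 to 146 CPM (median 133) in young and 175 to 275 CPM (median 249) in old with no overlap, at 0.91 ± 0.07 (adjusted p 8.96e-06), and a median of 249 CPM at 18 months. Gm15446 (chr5:109923400-109943936) had at most 0.363 CPM in young and 7.2 to 14.1 CPM (median 11.4) in old, at 6.30 ± 0.31 (adjusted p 2.07e-07). Gm16867 had 2 counts in all young libraries together and 468 in old ones, a ratio of 233 per library total (95% interval 64.1 to 1928, exact, counting error only). Their 18-month medians, 10.03 and 1.69 CPM, lay near the old ones. Both genes passed the filter on low counts through the old libraries alone.

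The falls with the smallest p held a gene with such a step too. Wdfy1 (chr1:79702262-79776143), an adaptor of endosomal Toll-like receptor signalling, ran from 51.1 to 83.9 CPM (median 71.0) in young and from 21 to 35.5 CPM (median 30.8) in old without overlap, at -1.20 ± 0.05 (adjusted p 7.48e-08), with 28.8 CPM at 18 months. The pseudogenes Tmem181b-ps and Dynlt1-ps1 were at -1.53 ± 0.08 (adjusted p 4.03e-07) and -0.89 ± 0.08 (adjusted p 4.81e-05), with 18-month medians of 12.9 and 7.18 CPM against 13.4 and 7.57 in old. As pseudogenes they share sequence with other genes, and their counts are uncertain. Psat1 (chr19:15904678-15947337), an enzyme of serine synthesis, fell in a graded way by its medians, 131 CPM at 6, 76.1 at 18 and 59.4 at 27 months. Its old and young libraries did not overlap (83.6 CPM as the lowest young value and 77.5 as the highest old one), at -1.12 ± 0.08 (adjusted p 1.08e-05). Itga6, the laminin receptor chain, was at -0.63 ± 0.06 (adjusted p 6.84e-05) with medians of 171, 132 and 115 CPM at the 3 ages.

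Rises with the smallest p, besides Ide, Oasl2 and Rtp4, were Got1, Sbsn and Kalrn. Got1, the cytosolic aspartate aminotransferase, ran from 37.8 to 134 CPM (median 82.2) in young and from 75.8 to 187 CPM (median 115) in old, at 0.65 ± 0.06 (adjusted p 6.84e-05). Although the groups overlapped, old was higher at all 12 times. Sbsn, the suprabasin gene, was at 0.82 ± 0.08 (adjusted p 2.68e-04), with medians of 24.9 CPM in young, 51.6 at 18 months and 46.7 in old. Kalrn, a guanine nucleotide exchange factor, was at 0.65 ± 0.07 (adjusted p 5.35e-04). With the liver covariate they passed as well, with an adjusted p of 0.00188 for Got1, 0.00743 for Sbsn and 0.00916 for Kalrn.

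**Figure D5:**
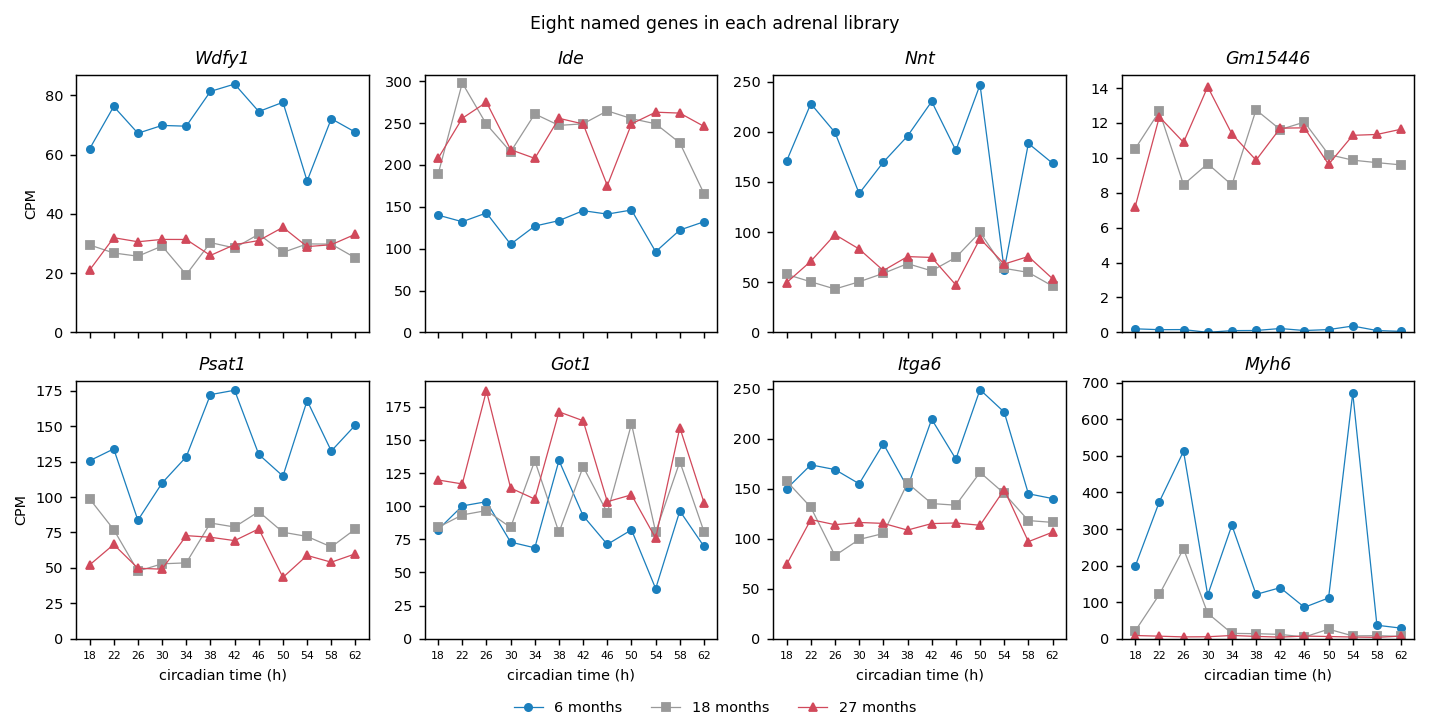
CPM of 8 named genes in each adrenal library against circadian time in hours, at 6, 18 and 27 months. For Wdfy1, Ide and Gm15446 the 18-month points lie with the 27-month ones, and for Psat1 the 18-month median of 76.1 CPM lies between 131 and 59.4.

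The largest falls named by rule were led by genes of heart muscle. Myh6 (chr14:54941921-54966927), the alpha myosin heavy chain of the atrium and adult mouse ventricle, ran from 28.9 to 672 CPM (median 130.4) in young and from 3.76 to 8.83 CPM (median 6.17) in old, with no overlap, at -4.60 ± 0.45 (adjusted p 1.79e-04). Its highest young value was in the library at 54, and without that time it was at -4.38 ± 0.40 (adjusted p 1.19e-04). Mybpc3, cardiac myosin-binding protein C, was at -4.17 ± 0.47 (adjusted p 4.66e-04), Pln, which restrains the calcium pump of the sarcoplasmic reticulum, at -3.56 ± 0.42 (adjusted p 5.58e-04), cardiac troponin T gene Tnnt2 at -2.95 ± 0.36 (adjusted p 7.29e-04), and cardiac troponin I gene Tnni3 at -2.76 ± 0.45 (adjusted p 0.00316). In each of these the old libraries lay below all young ones, and the 18-month medians were 14.2 CPM for Myh6 and 10.4 for Tnnt2. The sum of 5 cardiac marker genes ran from 33.7 to 687 CPM in young and from 9.62 to 51.9 in old. That sum was mostly Myh6, which gave 672 of the 687 CPM in the young library at 54. The marker list itself was split: of 4 genes tested, 1 was lower and 1 higher, with changes from -4.60 (Myh6) to 5.33 (median 0.03). Of the fast skeletal muscle genes, 13 of 13 had values above 0 with a median of 4.83, but 0 passed. The myosins Myh1 and Myh4 were at 6.07 ± 2.07 and 6.27 ± 2.51 (adjusted p 0.0642 and 0.102). DESeq2 called 13 of the 13 and the fit without a block 9. What part the presence of other tissue has in these changes was not tested.

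The other 5 falls were of Gm28438, Gm49980, Gm43305, Kcnj14 and Mid1-ps1, at -2.81 (adjusted p 6.84e-05), -2.34 (adjusted p 5.58e-04), -1.88 (adjusted p 0.00168), -1.72 (adjusted p 0.00168) and -1.66 (adjusted p 0.007). Kcnj14 encodes an inward rectifier potassium channel, and Gm28438 and Mid1-ps1 are annotated as pseudogenes. Gm28438 had 6.53 to 17.6 CPM in young, a median of 1.85 at 18 months and of 1.31 in old. Fat genes held 2 calls: Lep, the leptin gene, was lower, with medians of 453 and 97.4 CPM at -1.92 ± 0.43 (adjusted p 0.014), and Cfd, adipsin, higher at 0.92 ± 0.18 (adjusted p 0.00812), while the median of the 10 white fat genes was -0.10.

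Few genes of the remaining lists passed over all 12 times. Of 15 cell division genes 0 passed over all times (median 0.39) and 11 were higher without 30 and 54 (median 0.76). Mki67, the proliferation marker, had 276 CPM in the lymphocyte-rich young library at 30 against a young median of 11.3 and an old one of 23.6, and was at 1.24 (adjusted p 0.0235) without 30 and 54. Of 17 clock genes 1 was lower in mean level over the day, Clock itself, at -0.18 ± 0.05 (adjusted p 0.0415), and 0 were higher. Without 54, Per2, a repressor of the clock, was at -0.38 (adjusted p 0.00505) and Tef, an output factor, at 0.25 (adjusted p 0.0455). Of 10 genes of glucocorticoid action 1 was higher, Hsd11b1, which regenerates active corticosterone, at 0.65 ± 0.14 (adjusted p 0.0104). The glucocorticoid receptor gene Nr3c1 was at 0.20 (adjusted p 0.136) and its induced gene Fkbp5 at -0.01 (adjusted p 0.964). Among immediate early genes Fos was higher at all 12 times, with 3.74 to 17.2 CPM (median 7.23) in young and 5.19 to 31.1 CPM (median 15.0) in old, at 1.16 ± 0.24 (adjusted p 0.0103), and Jun was lower, at -0.58 ± 0.15 (adjusted p 0.0216). Of 12 genes of the mitochondrial genome 1 was higher, mt-Nd3 at 0.59 (adjusted p 0.0294), with a list median of 0.06. The level of mt-Nd3 was low, 0.823 to 2.54 CPM in young and 1.67 to 2.64 CPM in old. With the covariates for muscle and fat, 0 genes of the capsule, clock, glucocorticoid, immediate early and mitochondrial lists passed. With the liver covariate 1 clock gene did, higher in old, and 0 of the other 4 lists. With 54 left out as well, the liver covariate gave 1 higher and 2 lower in each of the capsule and clock lists. The glucocorticoid list then gave 1 higher and 1 lower, the immediate early list 0 and 2, and the mitochondrial list 0 and 0.

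The adrenal change was then set against that of the other 5 tissues in 1 fit of the 144 old and young libraries, with tissue by circadian time as a block. The test is of the difference itself: the adrenal change minus the mean change of kidney, lung, muscle, heart and hypothalamus. Of 21552 genes, 19.0% had a more positive and 9.79% a more negative change in adrenal. A gene with hardly any counts in a tissue has no change there that can be estimated. Hsd3b6, with a median of 0 CPM in each of the other 5 tissues, was therefore not compared. Lists are therefore given over the 11742 genes with a mean CPM of at least 1 in each tissue, where 22% were more positive and 14.6% more negative. That limit was chosen after the data were seen.

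Several macrophage genes changed more negatively in adrenal than in the other tissues. Of 12 with values in each tissue, 6 changed more negatively in adrenal and 0 more positively (median difference -0.43). Gpnmb was at -0.29 in adrenal, against log2 changes elsewhere of kidney 2.46, heart 1.52, lung 0.64, muscle 1.37 and hypothalamus 3.25, a difference of -2.09 ± 0.33 (adjusted p 1.25e-06). Lgals3, which encodes galectin-3, was at -0.39 in adrenal against log2 changes elsewhere of kidney 0.84, heart 1.12, lung 0.36, muscle 1.19 and hypothalamus 2.60, with a difference of -1.59 ± 0.22 (adjusted p 5.05e-08). Lyz2, the lysozyme gene, differed by -0.89 ± 0.24 (adjusted p 0.00246), Ctss by -0.70 ± 0.19 (adjusted p 0.00224), Cd68 by -0.67 ± 0.21 (adjusted p 0.00932) and C1qb by -0.53 ± 0.20 (adjusted p 0.0308). Cdkn1a too was more negative in adrenal, by -1.05 ± 0.16 (adjusted p 5.13e-07).

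The interferon-stimulated genes gave 2 calls. Of 16, 1 was more positive and 1 more negative (median difference -0.01), Rtp4 at 0.34 ± 0.13 (adjusted p 0.0278) and Ifi27l2a at -0.81 ± 0.26 (adjusted p 0.0114). Oasl2 was at 0.89 in adrenal against log2 changes elsewhere of kidney 1.46, heart 0.64, lung 1.12, muscle 0.46 and hypothalamus 1.60, a difference of -0.15 ± 0.13 (adjusted p 0.389). C4b did not pass, at -0.55 ± 0.31 (adjusted p 0.164), nor Ighm, at 0.33 ± 0.36 (adjusted p 0.487), which was at 2.45 in adrenal against log2 changes elsewhere of kidney 5.11, heart 0.14, lung 3.10, muscle 0.71 and hypothalamus 1.59. The light chain Igkc was more positive in adrenal, at 1.82 ± 0.48 (adjusted p 0.0024).

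All 3 zona glomerulosa genes with values in each tissue changed more negatively in adrenal: Agtr1a by -0.68 ± 0.15 (adjusted p 3.48e-04), Dab2 by -0.43 ± 0.12 (adjusted p 0.00312) and Cacna1h by -1.25 ± 0.30 (adjusted p 6.96e-04). Of 6 steroidogenesis genes 2 did, Fdxr by -0.69 ± 0.17 (adjusted p 0.00145) and Tspo by -0.65 ± 0.11 (adjusted p 6.74e-06). Cholesterol supply was split, with 7 of 19 more positive and 2 more negative. Scarb1 was among the more negative, by -0.60 ± 0.14 (adjusted p 6.19e-04). Of 15 matrix genes 4 were more negative and 0 more positive, among them Sparc, by -0.71 ± 0.11 (adjusted p 1.45e-06). Of 16 antioxidant genes 5 were more positive, among them Gpx3 by 0.69 ± 0.11 (adjusted p 2.65e-06), and 5 more negative, among them Gpx4 by -0.63 ± 0.11 (adjusted p 1.44e-05). Psat1 fell by 1.12 in adrenal on the log2 scale against log2 changes elsewhere of kidney -0.69, heart 0.13, lung 0.32, muscle 0.08 and hypothalamus 0.44, a difference of -1.15 ± 0.11 (adjusted p 1.91e-12). Wdfy1 fell in adrenal by less than elsewhere (kidney -1.68, heart -1.83, lung -2.28, muscle -1.93 and hypothalamus -2.11), a difference of 0.79 ± 0.08 (adjusted p 2.15e-12).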

How the data were processed

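Poly(A) RNA was sequenced per the labels' protocols. HISAT2, HTSeq and the build GRCm38 (mm10) are named, with no role or order, per the submitters' processing notes. Versions, annotation and the setting for strand: not given in the sources used here, so counts of overlapping or antisense genes are uncertain. Whole-number counts per gene were deposited by the authors in 1 table of 55376 gene rows in all libraries, not normalized. A second table of CPM was not used. No column lacked a sample, and 4 rows that share 2 names were kept apart.

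Old and young adrenal (12 libraries each) were compared on the deposited counts in edgeR 4.0.16 under R 4.3.3 with a block for circadian time. Low genes were dropped with filterByExpr (groups by age, minimum count 10), libraries were scaled by TMM, and a robust quasi-likelihood fit was tested with glmQLFTest, two-sided, with Benjamini-Hochberg adjustment over 17355 genes at 0.05. The median change of all genes was 0.01, and -0.02 with library totals alone. Standard errors are the change over the square root of F. The other tissues entered a second fit of 144 libraries. Alternatives included DESeq2 1.42.0. On simulated data for old against young, 39 of 76 genes changed 1.5-fold, 53 of 69 changed 2-fold and 51 of 55 changed 4-fold were recovered, with 5 false calls among 17355. Circadian time pairs the libraries by design, not by animal. Coordinates are from GENCODE vM21 (GRCm38) and promoters from RefSeq (GRCm38.p6).

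Genes named are the 10 largest rises and falls with 1 sign at 12 times and a mean CPM of at least 1, the 6 smallest p in each direction with a mean CPM of at least 10, Ighm, C4b, up to 4 per list with the smallest p and any other member a count needs, and, against other tissues, the 5 most positive and negative. Some list members are counted but not reported here by name. The members and lists were chosen with earlier results of these data known.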

Additional observations from a re-analysis of the deposited data

Results flagged for a closer look

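A set of 10 genes stood out because their change with age in adrenal differed from the mean change of the other 5 tissues, by the test of that difference in edgeR (quasi-likelihood, Benjamini-Hochberg adjustment). They are the 5 most positive and 5 most negative differences among genes with a mean adrenal CPM of at least 10. The limit of a mean CPM of at least 1 in each tissue was not applied to them. Where a gene has hardly any counts in a tissue, its change there cannot be estimated, and the difference is a description. All values are differences of log2 changes with their SE.

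The positive ones are genes of exocrine pancreas and fast skeletal muscle. Pnliprp1, a pancreatic lipase relative, was at 8.03 ± 2.41 (adjusted p 0.00931), and Pla2g1b, pancreatic phospholipase A2, at 7.04 ± 2.27 (adjusted p 0.0179). Pnliprp1 had 3095 CPM in the old library at 18 and 1051 at 46, and an old median of 0.133, and Pla2g1b had 295 and 85.2 CPM in the same libraries. So 2 of 12 old libraries hold nearly all of the signal of both, and neither gene passed the filter on low counts of the fit to adrenal alone. The myosin genes Myh1 and Myh4 were at 6.31 ± 1.34 (adjusted p 2.38e-04) and 5.82 ± 1.5 (adjusted p 0.00219), and Igfn1, a gene of the sarcomere, at 5.81 ± 1.55 (adjusted p 0.00304). Myh4 ran from 1.4 to 6683 CPM in old against 0.264 to 854 in young adrenal. Neither myosin passed in the fit to adrenal alone.

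The negative ones are 4 genes of heart muscle and Mmp12. Myh6 was at -4.51 ± 0.44 (adjusted p 4.56e-12), the cardiac actin Actc1 at -3.91 ± 0.77 (adjusted p 9.26e-05), Pln at -3.90 ± 0.40 (adjusted p 2.43e-11) and Tnnt2 at -3.40 ± 0.32 (adjusted p 1.01e-12). Mmp12, the macrophage elastase, was at -3.51 ± 0.32 (adjusted p 2.34e-13): it was at -1.29 (adjusted p 0.00965) in adrenal, with 6.73 to 35.9 CPM in old against 8.01 to 84.4 in young adrenal, while its log2 change was 5.42 in hypothalamus, 1.77 in heart, 1.59 in lung and 0.21 in kidney. In muscle, with a median of 0.164 CPM, it did not pass the filter of the fit to that tissue alone, so its difference rests partly on a change that could not be estimated. The part that tissue taken along with the gland has in the muscle, heart and pancreas genes was not tested.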

How the results depend on the processing

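Called genes between old and young adrenal numbered 2563 (1384 higher, 1179 lower). The count was 3571 with a 24 h cosine, 5268 with all 36 adrenal libraries, 2634 with median-of-ratios factors, 2360 with library totals alone, 2097 without the filter on low counts, 4656 by DESeq2 and 2896 without the block for circadian time. It was 143 (120 higher, 23 lower) for a minimum change of 1.5-fold, 581 at an adjusted p under 0.01, 64 (22 higher, 42 lower) with covariates for muscle and fat, 2342 without genes high in muscle or heart, 49 (21 higher, 28 lower) in the first cycle alone and 113 (88 higher, 25 lower) in the second, where 6 times remain. Leaving out 1 circadian time gave 1549 (without 42) to 4540 (without 54) genes. Chosen after the data were seen, 5697 (3009 higher, 2688 lower) genes were called without 30 and 54, 1183 (691 higher, 492 lower) with a liver covariate and 3129 (1624 higher, 1505 lower) with that covariate and without 54. The cause of these shifts was not tested. Of 83 named genes called, 73 passed with any 1 time left out, 54 with the liver covariate and 16 with those for muscle and fat. Npc1 turned to -0.01 with the liver covariate and without 54, the only change of sign. The comparison with other tissues called 6207 genes and 4303 to 7703 under its alternatives. With a mean adrenal CPM of at least 1 its split was 2866 more positive and 2989 more negative, against 4096 and 2111. At this depth, genes under about 10 counts in most libraries were not tested.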
